A study of Rattus norvegicus with 6 samples.

Results

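The 9 genes described here are the transforming growth factor beta (TGF-beta) ligands Tgfb1, Tgfb2 and Tgfb3, the receptors Tgfbr1 and Tgfbr2, the latent complex gene Ltbp1 and the TGF-beta-induced genes Pmepa1, Ctgf and Smad7. They were chosen by gene symbol, and all 9 had a row among the 16209 genes of the table. RNA was sequenced from 6 liver samples of rats with liver fibrosis. Of these, 3 came from rats treated with ginkgetin, a biflavone found in Ginkgo, at a dose of 10 mg/kg/day, and 3 from rats treated with vehicle. The sources used here do not give the rats' strain, sex or age, how long they were treated or how fibrosis was induced, and no healthy liver was compared. The ginkgetin columns match the labels by name and number, whereas the other columns carry the letters TAA and a number, which the labels do not explain. These were taken as the vehicle livers, since vehicle is the only other group, and every direction below rests on this. The vehicle replicate numbers are those of the columns and are not tied to the numbers in the labels. Whether each replicate is 1 animal is not stated, so the p-values reflect the spread among the libraries, which may be technical.

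TGF-beta is secreted as a latent dimer that latent TGF-beta binding proteins anchor in the matrix. Once released by integrins, proteases or thrombospondin, it joins the type II and type I receptors, and the type I receptor phosphorylates SMAD2 and SMAD3, which enter the nucleus with SMAD4. In the liver this pathway is known for turning stellate cells into matrix-producing myofibroblasts, and it also induces its own brakes.

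The libraries held 13372367 to 14933853 reads assigned to genes. Albumin reads, the mark of hepatocytes, made up 6.56% to 12.11% of reads in the ginkgetin livers and 2.89% to 9.44% in the vehicle livers. Vehicle replicate 3 had the lowest share and stood apart. Its summed markers were 456468 normalized reads for hepatocytes (12 genes) against 1671762 to 2362608 in the other vehicle livers, and 17750 for stellate cells and fibroblasts (11 genes) against 6788 to 7249. For many of the genes named, log2 fold changes without vehicle replicate 3 are also given. In bulk tissue, fewer cells of a type and less RNA per cell cannot be told apart.

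In the ginkgetin livers the ligands, Ltbp1, Pmepa1 and Ctgf were read at lower levels, whereas the receptors and Smad7 lay within overlapping ranges. Pmepa1 and Ctgf showed the widest separation, and Tgfb1 and Tgfb3 the narrowest of the 6 genes whose groups did not overlap. Values are normalized read counts, and a log2 fold change is the difference of mean log2(value + 1), ginkgetin minus vehicle. Tests were made with limma, a linear model fitted across all genes, with Benjamini-Hochberg adjustment over the 14639 genes tested, at a threshold of 0.05. None of the 9 genes passed, where 0.00683% of all genes passed on the lower side (1 gene). At an unadjusted p of 0.05, 6 of 9 were lower and 0 higher, beside 13.2% of all genes lower and 7.00% higher. The same 6 genes had no overlap between groups, all lower with ginkgetin, beside 16.1% of all genes lower without overlap. The median log2 fold change was -1.82 over the 9 genes and -0.02 over all genes, and -1.26 and -0.01 without vehicle replicate 3.

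**Figure D1:**
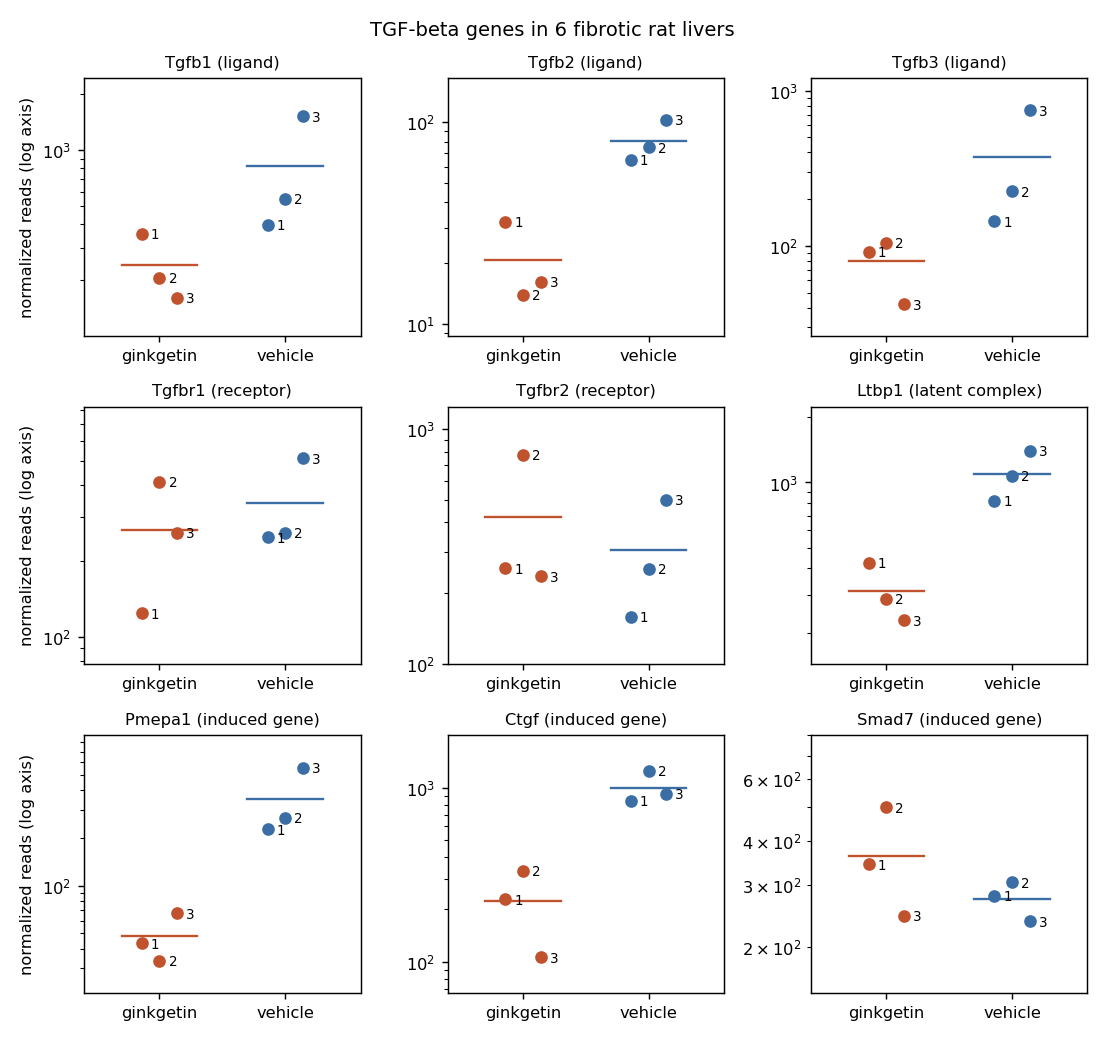
Normalized reads of each gene (log axis) in the ginkgetin and vehicle livers, with 1 point per library labelled by its number and a line at the group mean. Tgfb1, Tgfb2, Tgfb3, Ltbp1, Pmepa1 and Ctgf have no overlap between groups, and Tgfbr1, Tgfbr2 and Smad7 do.

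Pmepa1 encodes a membrane protein that is induced by TGF-beta and restrains it by keeping SMAD2 and SMAD3 from the receptor complex. Ctgf, now named Ccn2, encodes connective tissue growth factor, a matricellular protein that promotes scarring. Smad7 encodes the inhibitory SMAD that blocks the type I receptor. Their promoters from RefSeq (build GRCr8, 250 bases before to 50 after the start site) are shown because these genes are read as outputs of the same pathway but lay at different distances between the groups. Capitals mark the SMAD box CAGAC, a short form of the SMAD binding site, and GGAATG, the element bound by TEAD factors of the Hippo pathway, on either strand. The SMAD palindrome GTCTAGAC and the AP-1 element TGANTCA were also searched, and no searched motifs overlap in these windows.
Ctgf, chr1:22624565-22624864, minus strand: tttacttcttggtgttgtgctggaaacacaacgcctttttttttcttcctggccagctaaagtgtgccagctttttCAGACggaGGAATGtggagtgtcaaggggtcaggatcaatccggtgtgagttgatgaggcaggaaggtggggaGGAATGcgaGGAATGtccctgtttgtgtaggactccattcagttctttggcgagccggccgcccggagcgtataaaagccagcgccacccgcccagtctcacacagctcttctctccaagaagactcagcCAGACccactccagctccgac
Pmepa1, chr3:182478600-182478899, minus strand: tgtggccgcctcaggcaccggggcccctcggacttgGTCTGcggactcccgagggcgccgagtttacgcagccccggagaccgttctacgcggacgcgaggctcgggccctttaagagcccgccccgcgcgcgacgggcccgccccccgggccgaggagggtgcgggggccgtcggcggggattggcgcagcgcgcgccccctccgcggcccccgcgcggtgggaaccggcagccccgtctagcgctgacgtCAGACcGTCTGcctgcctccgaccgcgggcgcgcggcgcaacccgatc
Smad7, chr18:71263258-71263557, plus strand: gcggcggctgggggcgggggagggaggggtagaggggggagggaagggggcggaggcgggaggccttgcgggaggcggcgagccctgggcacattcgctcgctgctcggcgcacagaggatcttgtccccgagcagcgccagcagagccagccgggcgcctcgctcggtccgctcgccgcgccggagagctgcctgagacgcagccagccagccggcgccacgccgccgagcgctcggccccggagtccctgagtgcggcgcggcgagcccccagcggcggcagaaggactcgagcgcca

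The Ctgf window holds 3 TEAD elements, starting 166, 101 and 92 bases before the start site, and 2 SMAD boxes. The Pmepa1 window holds 3 SMAD boxes and the Smad7 window none of the searched letters. Among 33469 rat promoter windows of this length, 14.2% hold a TEAD element, 50.1% a SMAD box, 7.33% the AP-1 element and 0.197% the SMAD palindrome. Of the other 6 genes, Ltbp1 alone had a match, 1 SMAD box. A match is a description of letters and not evidence that a factor was bound in these livers. Bases outside these windows were not searched, so a window without a match does not mean that the gene lacks such sites.

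Pmepa1 stood at 43.1, 33.6 and 66.8 normalized reads in the ginkgetin livers, against 227, 267 and 554 in the vehicle livers. The lowest vehicle library was 3.39 times the highest ginkgetin library, the widest gap of the 9 genes, and vehicle replicate 3 was the highest. The means were 47.8 ± 17.1 with ginkgetin and 349 ± 178 with vehicle (SD, n = 3 each), and the log2 fold change was -2.78 (SE 0.426, limma adjusted p = 0.0668). This ranked 32 by p among all genes. Without vehicle replicate 3 it was -2.40 (limma adjusted p = 0.0377), and without vehicle replicate 1 it was -3.04 (limma adjusted p = 0.0239), so Pmepa1 passed with either of these left out. Of all genes, 0.458% passed on the lower side without vehicle replicate 3 and 3.04% without vehicle replicate 1.

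Ctgf had 229, 333 and 106 normalized reads with ginkgetin and 838, 1249 and 921 with vehicle. The vehicle libraries lay close together here, and vehicle replicate 3 was not the highest, at 0.882 of the mean of vehicle replicates 1 and 2. The means were 223 ± 114 with ginkgetin and 1002 ± 218 with vehicle (SD, n = 3 each). The log2 fold change was -2.29 (SE 0.405, limma adjusted p = 0.0766), at -2.34 without vehicle replicate 3. It passed without vehicle replicate 1, at -2.41 (limma adjusted p = 0.0362).

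Smad7 was the exception among the induced genes. It had 344, 500 and 245 normalized reads in the ginkgetin livers and 280, 306 and 237 in the vehicle livers. The vehicle range lay almost within the ginkgetin range, and ginkgetin replicate 2 was the highest library. The log2 fold change was 0.35 (95% interval -0.33 to 1.03, limma adjusted p = 0.515). It stood at 0.25 without vehicle replicate 3. The interval holds no decrease as large as the estimate for Pmepa1 or Ctgf. With library totals set equal, the direction turned, at -0.17, where the median of all genes moved to -0.53.

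Tgfb1 encodes the main TGF-beta isoform of fibrotic liver. It had 357, 207 and 161 normalized reads with ginkgetin and 399, 550 and 1518 with vehicle. The groups came close, with the lowest vehicle library at 1.12 times the highest ginkgetin library, and vehicle replicate 3 was 3.20 times the mean of the other vehicle libraries. The log2 fold change was -1.60 (SE 0.507, limma adjusted p = 0.158). Leaving out vehicle replicate 3 gave -1.03 (limma adjusted p = 0.181).

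Tgfb2, a second isoform known in the liver from bile duct and stromal cells, was read at a low level throughout. It had 32.1, 13.9 and 16.1 normalized reads with ginkgetin, against 65.2, 74.9 and 103 with vehicle. Behind these stand 12 to 29 reads per ginkgetin library and 55 to 167 reads per vehicle library, so counting error is larger than for the other ligands. The log2 fold change was -1.98 (SE 0.463, limma adjusted p = 0.101). Leaving out vehicle replicate 3 gave -1.80. The lowest vehicle library was 2.03 times the highest ginkgetin library.

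Tgfb3, the remaining isoform, had 91.8, 105 and 42.1 normalized reads with ginkgetin and 144, 225 and 749 with vehicle. Vehicle replicate 3 was 4.07 times the mean of the other vehicle libraries, the largest such ratio of the 9 genes. The log2 fold change was -1.95 (SE 0.621, limma adjusted p = 0.159), and -1.26 without that library.

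Ltbp1 encodes a latent TGF-beta binding protein, which ties the latent ligand to the matrix. It had 425, 289 and 230 normalized reads in the ginkgetin livers, against 824, 1076 and 1399 in the vehicle livers. The means were 315 ± 99.7 with ginkgetin and 1100 ± 288 with vehicle (SD, n = 3 each), and the groups lay apart by a factor of 1.94 at their nearest libraries. Its log2 fold change of -1.82 had the narrowest interval of the genes without overlap (-2.51 to -1.12, limma adjusted p = 0.0688). It passed without vehicle replicate 3, at -1.63 (limma adjusted p = 0.0449), and without vehicle replicate 1, at -2.01 (limma adjusted p = 0.0260).

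The receptors did not follow the ligands. Tgfbr1, the type I receptor kinase, had 124, 413 and 259 normalized reads with ginkgetin and 249, 259 and 514 with vehicle. Tgfbr2, the type II receptor that binds the ligand first, had 255, 777 and 236 with ginkgetin and 159, 254 and 501 with vehicle. For both genes ginkgetin replicate 2 was the highest ginkgetin library and vehicle replicate 3 the highest vehicle library, and the groups overlapped. The log2 fold change was -0.44 for Tgfbr1 (95% interval -1.52 to 0.64, limma adjusted p = 0.614) and 0.40 for Tgfbr2 (-0.86 to 1.66, limma adjusted p = 0.700). Neither direction was stable. Tgfbr1 lay at -0.10 and Tgfbr2 at 0.84 without vehicle replicate 3. Tgfbr1 lay at 0.02 without ginkgetin replicate 1, and Tgfbr2 at -0.15 without ginkgetin replicate 2 and at -0.12 with equal library totals.

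**Figure D2:**
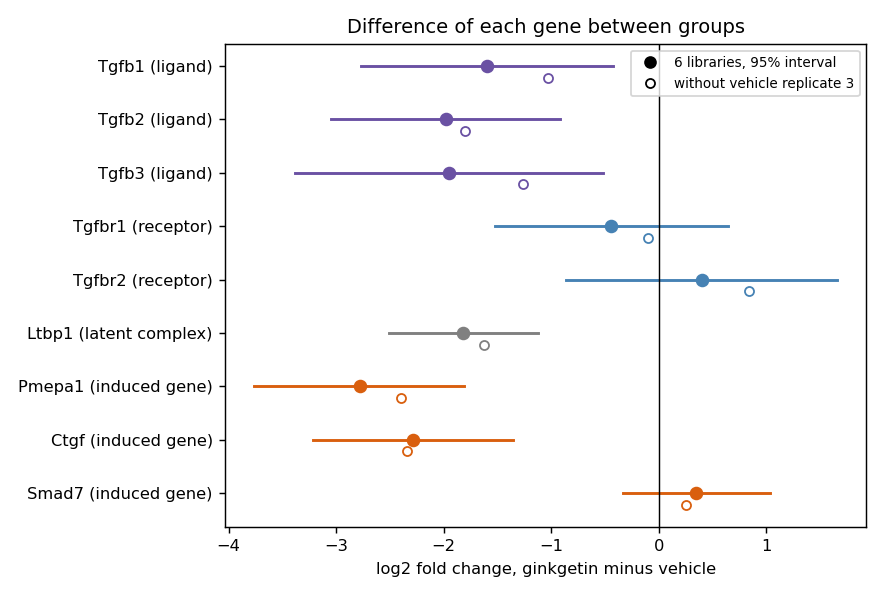
Log2 fold change of each gene, ginkgetin minus vehicle, on the log2(value + 1) scale. Filled points with 95% limma intervals use 6 libraries, and open points leave out vehicle replicate 3. Pmepa1 lies furthest to the left at -2.78, and the intervals of Tgfbr1, Tgfbr2 and Smad7 cross 0.

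The choice of test decided which of these genes were called. On the recovered whole reads edgeR called none of the 9 genes, and 0% of the 12443 genes it tested, while 2490 had an unadjusted p under 0.05. DESeq2 on the same reads called 6 of the 9 genes lower and 0 higher, where it called 7.70% of all genes lower and 1.89% higher. These were Pmepa1 (adjusted p = 1.72e-06), Ltbp1 (1.23e-04), Ctgf (2.10e-04), Tgfb2 (0.00340), Tgfb3 (0.0146) and Tgfb1 (0.0290). Without vehicle replicate 3, DESeq2 called Pmepa1, Ctgf, Ltbp1 and Tgfb2, beside 3.75% of all genes lower, and its adjusted p was 0.155 for Tgfb1 and 0.130 for Tgfb3.

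Set against each other, ligands and receptors (5 genes) had a median log2 fold change of -1.60 and the induced genes (3 genes) one of -2.29. The median over all genes was -0.02. Without vehicle replicate 3 the class medians were -1.03 and -2.34. Each of these class medians is the value of a single gene, Tgfb1 for the first class and Ctgf for the second. Ligands alone (3 genes) had a median of -1.95 and the receptors (2 genes) one of -0.02. The level of each class in a library was taken as the mean log2 level of its genes, each centred over the 6 libraries. Ligands and receptors lay at -0.51, -0.19 and -0.96 with ginkgetin and at -0.09, 0.32 and 1.44 with vehicle. Induced genes lay at -0.76, -0.52 and -1.08 with ginkgetin and at 0.55, 0.87 and 0.95 with vehicle. The nearest libraries of the groups were 0.11 log2 units apart for ligands and receptors and 1.07 apart for induced genes. Vehicle replicate 3 exceeded vehicle replicate 2 by 1.12 for ligands and receptors and by 0.08 for induced genes. These class levels are descriptions with no test, and Smad7 did not share the separation of Pmepa1 and Ctgf. The first class pools the ligands with receptors whose groups overlapped, so its gap of 0.11 does not describe the ligands alone.

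**Figure D3:**
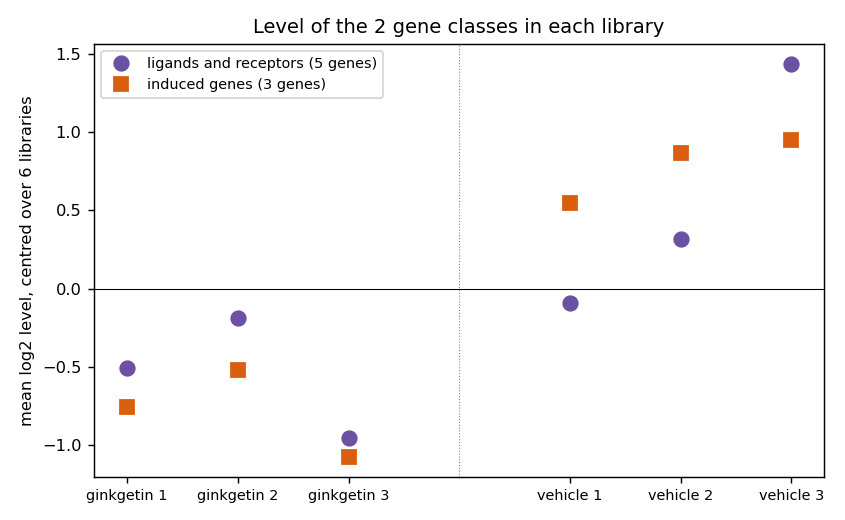
Mean log2 level of 5 ligand and receptor genes (circles) and 3 induced genes (squares) in each library, centred over the 6 libraries. The induced genes separate the groups by 1.07 at their nearest libraries and the ligands and receptors, pooled, by 0.11. Vehicle replicate 3 is highest in both classes.

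Ratios within a library compare genes without regard to scaling between libraries. They were formed for 6 pairs of genes as log2 ratios and compared with a two-sided exact permutation test, which cannot go below p = 0.1 with 3 against 3. The Smad7/Tgfb1 ratio was -0.05, 1.27 and 0.60 with ginkgetin and -0.51, -0.84 and -2.67 with vehicle, with no overlap and a difference of 1.95 (exact p = 0.1, 0.48 adjusted over 6 ratios). The Ctgf/Tgfb1 ratio was -0.64, 0.68 and -0.59 with ginkgetin and 1.07, 1.18 and -0.72 with vehicle, so the groups overlapped through vehicle replicate 3 (difference -0.69, exact p = 0.4). The Pmepa1/Tgfb1 ratio also overlapped, at a difference of -1.19 (exact p = 0.2). Differences were smaller between the ligands, at -0.39 for Tgfb2/Tgfb1 and -0.35 for Tgfb3/Tgfb1, and the Tgfbr1/Tgfbr2 ratio differed by -0.84 (exact p from 0.3 to 0.5 for these 3 ratios).

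For each gene the most similar profile over the 6 libraries was taken as the smallest root mean square (RMS) difference of centred log2 levels, among genes above the median level. Ltbp1 lay closest to Epcam (0.0921), an adhesion protein of bile duct cells, which had 365, 259 and 233 normalized reads with ginkgetin and 783, 1106 and 1277 with vehicle. Tgfb2 lay closest to Kank3 (0.155) and next to Aqp1 (0.192), a water channel of bile duct and endothelial cells that was also second for Ltbp1. Tgfb1 lay closest to Clic1 (0.119), a chloride channel protein, and Tgfb3 to Col6a1 (0.180), a collagen VI chain. Tgfbr2 lay closest to Reln (0.152), which in liver is known from stellate cells, at 265, 655 and 245 normalized reads with ginkgetin and 165, 235 and 402 with vehicle. Tgfbr1 had Tnpo3 (0.186), a nuclear import receptor, and as the third gene Mmp14 (0.208), a membrane protease. Smad7 had Adamts13 (0.104), a von Willebrand factor protease known from stellate cells. Pmepa1 and Ctgf had no profile as near by this measure, with Tspo (0.385) and Lgals3bp (0.328) the closest. The distance also depends on a gene's own RMS around its mean over the 6 libraries. This was 1.47 for Pmepa1, 1.25 for Ctgf and 1.27 for Tgfb3, against 0.361 for Smad7 and 0.645 for Tgfbr1. Distances of genes with unlike own RMS therefore do not rank how closely their profiles match. Between the 9 genes themselves, Tgfb2 and Ltbp1 were nearest (0.214) and Tgfbr2 and Pmepa1 furthest apart (1.79).

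The rest of the pathway was described with 5 lists of 52 genes, all of them tested. Over these, 38 had lower means and 14 higher, where 51.4% of all genes had lower means, and the median was -0.41. By limma 0 passed the threshold, and 13 lower and 3 higher had an unadjusted p under 0.05, beside 13.2% and 7.00% of all genes. The groups did not overlap in 12 genes lower and 3 higher, beside 16.1% and 11.4% of all genes. Leaving out vehicle replicate 3 gave a median of -0.27 and 3 genes past the threshold, all lower (Col1a1, Fbn1 and Ltbp2), beside 0.458% of all genes. Leaving out vehicle replicate 1 gave 8 lower and 1 higher, beside 3.04% of all genes lower and 1.71% higher. DESeq2 on all libraries also called 8 lower and 1 higher, beside 7.70% and 1.89% of all genes.

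Genes of latency and activation lay lowest (11 of 12 lower, median -1.42, and -1.19 without vehicle replicate 3). Their groups did not overlap in 5 genes lower and 1 higher, beside 16.1% and 11.4% of all genes. Itgb6, the beta subunit of an epithelial integrin that releases TGF-beta from its latent complex, had 29.9, 18.5 and 11.1 normalized reads with ginkgetin and 104, 210 and 219 with vehicle. Its log2 fold change was -3.13 (SE 0.491, limma adjusted p = 0.0679), and it passed without vehicle replicate 1, at -3.47 (limma adjusted p = 0.0237), and not without vehicle replicate 3, at -2.94 (limma adjusted p = 0.0524). Ltbp2, which binds elastic fibres, lay at -3.07 (-2.83 without vehicle replicate 3, limma adjusted p = 0.0432) and Ltbp3, a latent TGF-beta binding protein, at -2.58 (-1.89 without it). Thbs1, thrombospondin 1, an activator of latent TGF-beta, had 95.1, 113 and 32.2 normalized reads with ginkgetin and 203, 228 and 297 with vehicle (-1.75, limma adjusted p = 0.123). Ltbp4 (-1.03), Lrrc32 (-1.09), which holds latent TGF-beta on cell surfaces, Itgav (-0.69), the partner of Itgb6, and Itgb8 (-1.83) overlapped between groups. These 4 genes lay at -0.79, -0.47, -0.57 and -2.15, in the same order, without vehicle replicate 3. Itgb8 had only 0 to 11 reads per ginkgetin library and 10 to 14 per vehicle library, so its change was barely measured (SE 0.999).

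The intracellular core lay close to the median of all genes. Its 6 genes had 3 lower and 3 higher means, a median of -0.06 and no gene without overlap. Map3k7, counted as higher, had only 0 to 4 reads per library, so its direction was barely measured. Smad2 had 189, 191 and 212 normalized reads with ginkgetin and 183, 210 and 277 with vehicle (-0.16, 95% interval -0.73 to 0.41). Smad3 was at -0.25 (-0.75 to 0.25) and Smad4 at 0.04 (-0.73 to 0.81). All 4 co-receptor genes had lower means (median -0.67), and in none were the groups apart. Tgfbr3, betaglycan, lay at -0.44, Eng, endoglin, at -0.11 and Acvrl1, the endothelial type I receptor ALK1, at -1.43. Cd109, at -0.90, had only 0 to 15 reads per library, so its direction was barely measured. Without vehicle replicate 3 Tgfbr3 lay at -0.18, Eng at 0.01, Acvrl1 at -0.91, Smad2 at 0.01 and Smad4 at 0.19, so Eng and Smad2 crossed 0.

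Brakes of the pathway were mixed (7 of 12 lower, median -0.15, and -0.03 without vehicle replicate 3). Bambi, a decoy receptor, had 76.3, 86.8 and 68.0 normalized reads with ginkgetin and 152, 166 and 184 with vehicle (-1.11, SE 0.276, limma adjusted p = 0.109). Its value was -1.04 with vehicle replicate 3 left out. The ubiquitin ligases Smurf1 (-0.40) and Smurf2 (0.31) lay on different sides, and the co-repressors Ski (-0.04) and Skil (0.19), of which Skil is itself induced by TGF-beta, lay near 0. Ski lay at 0.09 and Skil at 0.27 without vehicle replicate 3.

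The other TGF-beta-induced genes were mixed as well, unlike Pmepa1 and Ctgf (13 of 18 lower, median -0.24, and -0.25 without vehicle replicate 3). Tgfbi, an adhesion protein named for its induction by TGF-beta, had 2818, 4988 and 4019 with ginkgetin and 2863, 2058 and 1526 with vehicle, a log2 fold change of 0.88 (limma adjusted p = 0.241). Klf10, an early-response transcription factor, was at 0.53 and Fn1, fibronectin, which hepatocytes also secrete, at 0.62 (0.38 without vehicle replicate 3). Col1a1 lay at -4.14, and at -2.78 (limma adjusted p = 0.0379) without vehicle replicate 3. Acta2, smooth muscle actin, had 255, 213 and 94.0 normalized reads with ginkgetin and 67.6, 137 and 1128 with vehicle, so that the groups overlapped and vehicle replicate 3 stood far above the others. Its log2 fold change was -0.35. The direction of Acta2 turned without that library, at 0.83 (limma adjusted p = 0.432).

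**Figure D4:**
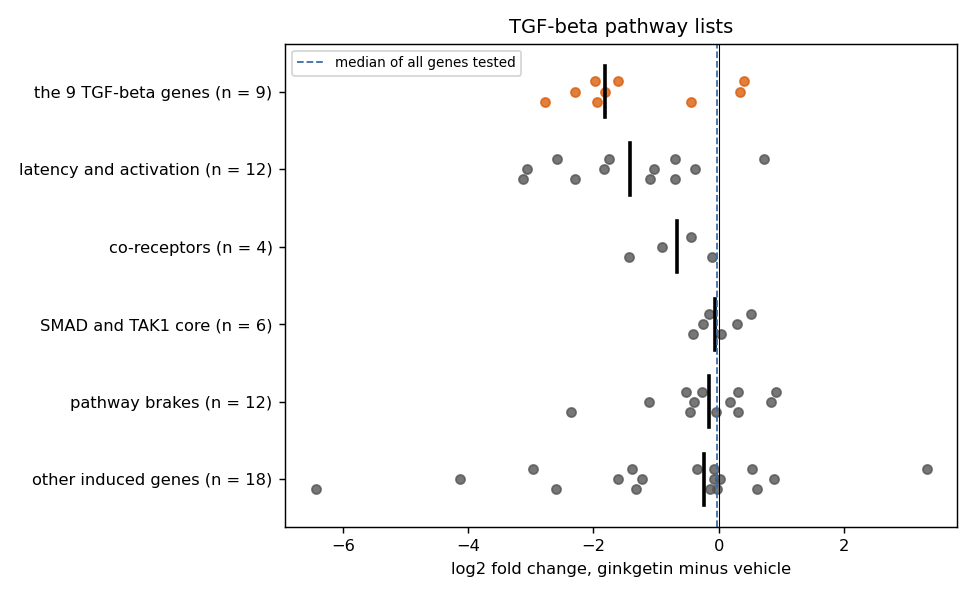
Log2 fold changes, ginkgetin minus vehicle, of the 9 TGF-beta genes and of 5 pathway lists, with 1 point per gene and a black bar at each list's median. The 9 genes (-1.82) and latency and activation genes (-1.42) lie left of the dashed median of all genes (-0.02), and the SMAD and TAK1 core (-0.06) lies on it.

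Markers of cell types that make or answer TGF-beta moved with some of these genes, and their part in the results was not tested. All 8 bile duct markers were lower (median -3.33), 7 of them without overlap, beside 16.1% of all genes lower without overlap. Their summed levels were 319 to 784 normalized reads with ginkgetin and 2049 to 21056 with vehicle, and no marker was at 0 in any library. Spp1, osteopontin, which other liver cells also make, gave 18034 of the 21056 reads in vehicle replicate 3, and without it the sums were 304 to 558 with ginkgetin and 1437 to 3022 with vehicle. The 11 stellate cell and fibroblast markers summed to 6694 to 8182 with ginkgetin and 6788 to 17750 with vehicle. Of these 6 were lower and 5 higher, at a median of -1.36, which became 0.41 without vehicle replicate 3, and Thy1 was at 0 in 1 ginkgetin library and Ngfr in 1 vehicle library. Dpt alone gave 4664, 4165 and 6546 with ginkgetin and 4145, 2826 and 3340 with vehicle, the largest part of each sum except in vehicle replicate 3. The groups did not overlap in 5 markers lower and 1 higher, beside 16.1% and 11.4% of all genes. Without vehicle replicate 3, 5 of the 11 were lower. Among them were Pdgfrb at -1.97 (limma adjusted p = 0.0290) and Cygb at -2.82 (limma adjusted p = 0.0301), where 0.458% of all genes passed lower. The 10 macrophage markers summed to 4800 to 8859 with ginkgetin and 3449 to 26761 with vehicle (5 lower, 5 higher), with Trem2 at 0 in 2 ginkgetin libraries. Gpnmb alone gave 16728 of the 26761 in vehicle replicate 3. The macrophage median was -0.26, which became 0.39 without that library. Endothelial markers (9 genes) summed to 3418 to 5193 with ginkgetin and 4147 to 7275 with vehicle, at a median of 0.01, and none was at 0. The 6 platelet markers, tested because platelets carry TGF-beta, summed to 218 to 454 with ginkgetin and 241 to 1178 with vehicle. Pf4 alone gave 1051 of the 1178 in vehicle replicate 3, and Ppbp, Gp1ba and Tubb1 were each at 0 in at least 1 library. Hepatocyte markers were higher in 12 of 12 genes, at 1.20, and 0.51 without vehicle replicate 3.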

How the data were processed

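Total RNA of liver was made into libraries with a SMARTER mRNA kit, as the labels' protocols say, and the submitters' processing notes name the build mRatBN7.2. No source used here names the aligner, counter, annotation, strand setting or normalization, and without strand a gene and its antisense partner cannot be told apart. The deposited values are a signal, normalized read counts per gene: in each library 99.67% of them were whole multiples of 1 step within 0.02, and the recovered reads were rounded.

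Genes reaching a value of 1 in at least 3 libraries were tested on log2(value + 1) with limma 3.58.1 in R 4.3.3 (trend and robust moderation, no block). Recovered reads were tested with edgeR 4.0.16 and DESeq2 1.42.0 as alternatives; DESeq2 called 1339 genes. The limma procedure was run on simulated reads with a common dispersion and no outlying library. That run does not show how it performs on these libraries. The 9 genes, the pathway lists and the marker lists were chosen with earlier results of these data known. The genes named are the 9, preset pathway genes and, for each of the 9, up to 3 genes with the most similar profile. Fbn1, Nox4, Cdkn2b, Postn, Map3k7 and Cd109 were named after their values were seen. So were the cell markers Spp1, Dpt, Pdgfrb, Cygb, Gpnmb and Pf4, and other cell markers where they are at 0. Symbols and promoters came from RefSeq tables of GRCr8, where 9 of 9 genes matched (Ctgf as Ccn2). Intervals on reads cover counting error only. Alternatives were other pseudocounts, filters, scalings, tools, a block and each library left out.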

Additional observations from a re-analysis of the deposited data

How the results depend on the processing

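Of 153 refits of single genes, 148 kept the direction reported, and Tgfb1, Tgfb2, Tgfb3, Ltbp1, Pmepa1 and Ctgf were lower in every setting run. Their log2 fold changes ranged from -2.12 to -0.98 for Tgfb1, -2.49 to -1.51 for Tgfb2, -2.47 to -1.21 for Tgfb3, -2.34 to -1.60 for Ltbp1, -3.30 to -2.37 for Pmepa1 and -2.81 to -1.83 for Ctgf. The adjusted p of Pmepa1 ran from 1.72e-06 to 0.259 over the settings. The direction turned for Tgfbr1, at 0.06 in DESeq2 without vehicle replicate 3, which was chosen after seeing the data, and between -0.84 and 0.02 with 1 library left out. It turned for Tgfbr2 with equal library totals (-0.12) and between -0.15 and 0.84 with 1 library left out, and for Smad7 with equal library totals (-0.17). The cause was not tested.

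The count of genes past 0.05, which is 2, was 0 with a pseudocount of 10 (2871 at an unadjusted p of 0.05), 1 with quantile scaling, 94 with equal library totals (84 lower, 10 higher), 27 without trend and robust moderation, 0 with edgeR (2490 unadjusted), 1339 with DESeq2 and 713 with DESeq2 without vehicle replicate 3. With 1 library left out of limma it ran from 0 to 696, highest without vehicle replicate 1 and 84 without vehicle replicate 3. The median of the induced genes was -2.81 with equal library totals, which moved the median of all genes to -0.53, and -2.56 to -1.83 with 1 library left out. Equal library totals called Ctgf, Ltbp1 and Pmepa1.

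The vehicle numbers are column numbers that the labels do not tie to replicates, so they pair no samples by design. The deviations of same-numbered libraries from their group means correlated at -0.16, 0.03 and -0.21 across genes. With the replicate block limma called 0 genes (2382 unadjusted), and 1 of the 6 libraries, ginkgetin replicate 2, correlated best with its own number.

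The low read numbers of Tgfb2 limit its precision.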

Other observations

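Nox4, an oxidase gene known as a TGF-beta target in stellate cells and also read from other liver cells, was named here after its values were seen. It had 282, 827 and 696 normalized reads in the ginkgetin livers, against 191, 21.6 and 36.2 in the vehicle livers, with no overlap and a log2 fold change of 3.33 (SE 0.770, limma adjusted p = 0.101). Cdkn2b, a cell cycle inhibitor induced by TGF-beta and also named after its values were seen, had 11.1, 12.7 and 7.42 with ginkgetin and 42.7, 112 and 133 with vehicle (-2.97, SE 0.551, limma adjusted p = 0.0804). Both passed in limma without vehicle replicate 1, at an adjusted p of 0.0170 for Nox4 and 0.0239 for Cdkn2b. Neither passed in limma without vehicle replicate 3, with Nox4 at 3.05 (limma adjusted p = 0.241) and Cdkn2b at -2.66 (limma adjusted p = 0.0829). Both were also called by DESeq2 on the recovered reads, at an adjusted p of 0.00551 for Nox4 and 2.65e-05 for Cdkn2b. In DESeq2 without vehicle replicate 3 the adjusted p was 0.215 for Nox4 and 0.00119 for Cdkn2b.

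Postn, periostin, a matrix protein of activated fibroblasts, had the largest ratio of vehicle replicate 3 to the other vehicle libraries among the pathway genes listed. It had 0, 1.16 and 0 normalized reads with ginkgetin and 16.6, 32.4 and 2394 with vehicle, so vehicle replicate 3 was 97.6 times the mean of the other vehicle libraries. The log2 fold change was -6.44 (SE 1.66, limma adjusted p = 0.115), and -4.23 (limma adjusted p = 0.0567) without vehicle replicate 3, so it stayed lower. DESeq2 without that library also called Postn lower. The gene was named after its values were seen.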
